A study of Mus musculus with 7 samples.

Results

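The small proline-rich proteins Sprr1 and Sprr2 were followed as 10 genes (Sprr1a, Sprr2a1, Sprr2b, Sprr2d, Sprr2e, Sprr2f, Sprr2g, Sprr2h, Sprr2i and Sprr2k) of the 24353 in a deposited expression table, where they stand in capitals as SPRR1A, SPRR2A1, SPRR2B, SPRR2D, SPRR2E, SPRR2F, SPRR2G, SPRR2H, SPRR2I and SPRR2K. The genes were chosen by name, after several of them had stood among the largest increases with tamoxifen plus alpelisib over tamoxifen alone. Values of these 10 members in the tamoxifen plus alpelisib libraries are therefore given as descriptions with no test. Genes of other lists were tested between tamoxifen plus alpelisib and tamoxifen, and those lists were also chosen with earlier results of these data known. RNA of epithelial endometrial cells was sequenced in 7 libraries from C57BL/6 female mice, all of them without ovaries, which had been removed at 6 to 7 weeks of age, so that the vehicle mice were estrogen-deprived. The groups were tamoxifen at 0.5 mg per day under the skin together with alpelisib at 30 mg/kg per day by mouth (2 libraries), the same dose of tamoxifen alone (2 libraries), estradiol from a pellet of 0.01 mg built to release over 60 days (2 libraries), and vehicle (1 library), each for 28 days. The first 2 of these and vehicle were arms of 6 mice each, randomized from 18, and 2 further mice received estradiol. Tamoxifen is a selective estrogen receptor modulator with partial agonist action in the uterus, while alpelisib is an inhibitor of PI3K that is selective for its alpha catalytic subunit. The labels do not say whether the single vehicle library stands for 1 animal or several, and vehicle values have no replicate.

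Small proline-rich proteins are cytoplasmic precursors of the cornified envelope, the protein shell that forms under the membrane of stratified squamous cells. Transglutaminases cross-link them to involucrin, loricrin and each other, and their genes lie side by side in the epidermal differentiation complex, on chromosome 3 in the mouse. The simple epithelium of the uterus forms no cornified envelope in its normal state, but several Sprr2 genes are known to respond to estrogen in the mouse uterus, and squamous change of this epithelium is accompanied by cornified envelope genes. AP-1 factors (Fos and Jun proteins), ETS factors and KLF factors are known regulators of Sprr promoters in human and mouse keratinocytes.

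The sequences before the annotated transcription starts show how alike the members are outside their coding parts. RefSeq promoter windows (build GRCm38.p6, chromosome 3) were matched for 9 of the 10 members, and the 250 bases before the start were compared. The window of Sprr2f, the most abundant member in the libraries with tamoxifen, lies at chr3:92364937-92365186, that of Sprr2d at chr3:92338890-92339139, that of Sprr2e at chr3:92351893-92352142 and that of Sprr2b at chr3:92316455-92316704, all on the plus strand. The window of Sprr1a lies at chr3:92485882-92486131 on the minus strand and that of Sprr2a1 at chr3:92215585-92215834 on the plus strand. These 6 are shown because they stand for the different expression patterns below, 5′ to 3′ toward the start, with capitals for TGANTCA (the AP-1 motif) and ATTTGCAT (the octamer motif).
Sprr2f: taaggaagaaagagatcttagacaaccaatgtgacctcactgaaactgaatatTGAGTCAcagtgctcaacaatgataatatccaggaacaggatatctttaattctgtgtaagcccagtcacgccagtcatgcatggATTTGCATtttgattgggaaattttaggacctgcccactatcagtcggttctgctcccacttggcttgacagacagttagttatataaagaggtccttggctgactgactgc
Sprr2d: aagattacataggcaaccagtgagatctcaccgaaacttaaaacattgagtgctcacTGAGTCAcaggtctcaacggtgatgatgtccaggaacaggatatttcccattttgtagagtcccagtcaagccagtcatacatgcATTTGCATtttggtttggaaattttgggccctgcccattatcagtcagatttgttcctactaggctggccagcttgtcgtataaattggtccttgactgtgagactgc
Sprr2e: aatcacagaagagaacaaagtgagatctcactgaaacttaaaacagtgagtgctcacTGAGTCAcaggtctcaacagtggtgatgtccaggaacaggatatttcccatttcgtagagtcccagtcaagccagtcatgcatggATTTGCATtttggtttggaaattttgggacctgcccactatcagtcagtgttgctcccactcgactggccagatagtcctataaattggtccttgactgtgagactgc
Sprr2b: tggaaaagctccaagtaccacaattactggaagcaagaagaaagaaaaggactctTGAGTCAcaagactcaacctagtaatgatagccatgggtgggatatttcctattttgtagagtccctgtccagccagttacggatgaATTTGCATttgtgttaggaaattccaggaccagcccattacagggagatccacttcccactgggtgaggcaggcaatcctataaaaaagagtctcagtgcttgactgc
Sprr1a: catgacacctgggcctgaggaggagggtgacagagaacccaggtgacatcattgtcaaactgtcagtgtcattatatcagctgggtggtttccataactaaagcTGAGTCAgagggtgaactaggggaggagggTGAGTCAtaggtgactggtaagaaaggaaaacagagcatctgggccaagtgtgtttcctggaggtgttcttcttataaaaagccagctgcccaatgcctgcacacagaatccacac
Sprr2a1: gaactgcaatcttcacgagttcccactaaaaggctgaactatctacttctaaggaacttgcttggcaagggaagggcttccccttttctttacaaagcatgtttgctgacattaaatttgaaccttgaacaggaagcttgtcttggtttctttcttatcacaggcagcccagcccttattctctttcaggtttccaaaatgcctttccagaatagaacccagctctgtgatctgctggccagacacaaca

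Searched on both strands, the AP-1 motif TGANTCA was found in 8 of the 9 member windows, against 6.75% of the 32851 windows of the same length. In the 7 Sprr2 windows that hold it, a match began 193 to 198 bases before the start, and Sprr2k held another 182 bases before it. Sprr1a had its matches 146 and 116 bases before the start. The octamer ATTTGCAT, searched only after the windows had been seen to share it, was found in 7 of 9 members, against 1.6% of all windows, in each case 108 to 112 bases before the start. TATAAA, also added after the windows were seen, occurred in 8 of 9, against 12.4% of all windows, and began 29 bases before the start in the 7 Sprr2 windows that hold it and 43 bases before it in Sprr1a. The ETS variant TTCCTGG occurred in 6 of 9 members (8.44% of all windows) and CAGGAA, which overlaps the reverse complement of the first, in 7 of 9 (25.7% of all). The KLF core CACCC was found in 3 of 9 members, against 52.0% of all windows. Neither the palindromic estrogen response element (0.0639% of all windows) nor the forkhead motif GTAAACA (3.17%) occurred in a member window, which says only that these letters are not in these 250 bases. The Sprr2a1 window held CAGGAA and none of the other motifs searched. Member windows share ancestry and are not independent of each other. The upstream identity reached 88.9% between Sprr2d and Sprr2e and 80.6% between Sprr2h and Sprr2k. The other pairs of Sprr2 windows without Sprr2a1 lay at 57.0% to 77.4%. Every pair with Sprr1a or Sprr2a1 lay at only 44.9% to 48.4%.

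**Figure D1:**
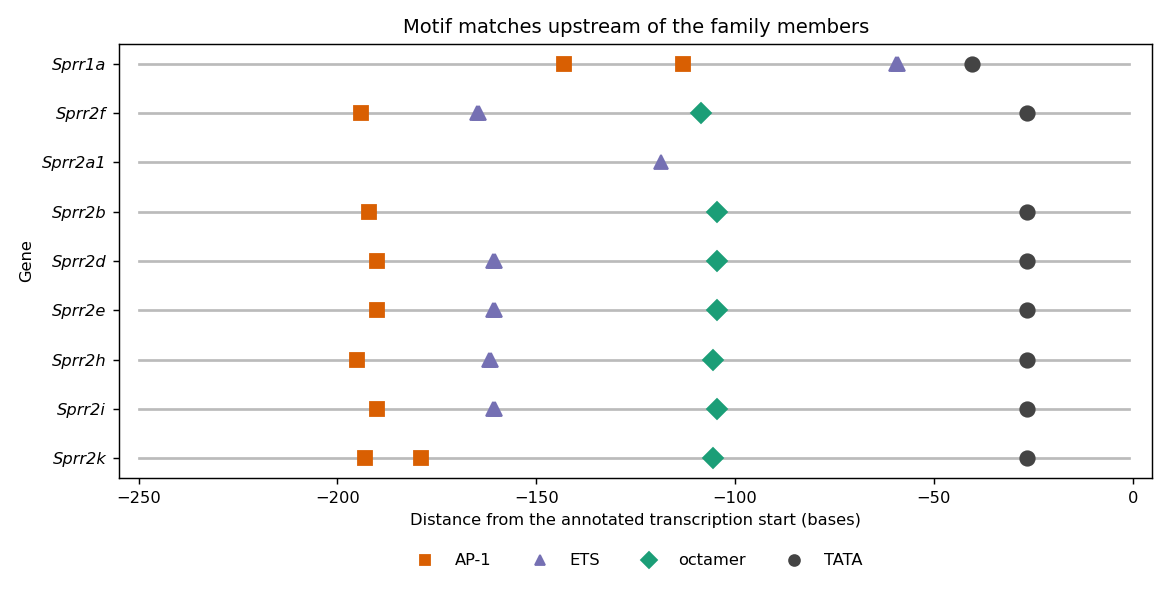
Positions of motif matches in the 250 bases before the annotated start of 9 family members (x axis, bases from the start; 1 row per gene). Squares mark AP-1, triangles the ETS variants, diamonds the octamer and circles TATAAA; in the Sprr2 genes other than Sprr2a1 the AP-1 match lies 193 to 198 bases and the octamer 108 to 112 bases before the start.

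Reads of near-identical copies can be divided in more than one way, so the uniqueness of each member was measured on annotated transcripts. Of all 50-base stretches of the Sprr2a1 transcript, 96.28% occur in another Sprr transcript, and Sprr2a2 shares most of them, so Sprr2a1 stands for a group of copies rather than for 1 gene. The share was 13.7% for Sprr2b, 12.5% for Sprr2i, 10.2% for Sprr2e, 4.27% for Sprr2d and 0.71% for Sprr2f. Sprr1a, Sprr2g, Sprr2h and Sprr2k shared no such stretch. The rule by which shared reads were divided among copies is not stated by the labels.

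Levels are in FPKM, fragments scaled to transcript length and to library size. Differences are between group means of log2(FPKM + 1), given ± SE from limma fitted over all 7 libraries and the 12314 genes that reached 1 FPKM in 1 library or more, and the adjusted p is over all those genes, with a threshold of 0.05. All 10 members passed that filter, Sprr2i and Sprr2k only through the tamoxifen plus alpelisib libraries. In these bulk libraries fewer cells of a type and less RNA per cell cannot be told apart. Depth, estimated from the lowest step of the values, was 16.6 M to 19.0 M fragments in 6 libraries, and estradiol library 2 showed no clear step. The same method gave 5.86 M there, with 19 genes behind the estimate against 38 to 53 in the others. The depth of estradiol library 2 is therefore uncertain and may be lower. The ribosomal RNA precursor Rn45s was at 2276 FPKM in that library and between 189 and 764 FPKM in the other 6. The 13 markers of simple epithelium, the labelled cell type (Epcam, Krt8 and others), summed to 6875 and 7447 FPKM with tamoxifen plus alpelisib, 4990.0 and 6703 with tamoxifen, 3565 and 3003 with estradiol and 7677 in vehicle. Of them 1 rose and 4 fell with tamoxifen over vehicle (14.9% and 24.1% of all genes). With estradiol over vehicle 1 rose and 5 fell (22.7% and 12.8%). Stromal markers summed to 121 and 129 FPKM with tamoxifen plus alpelisib, 56.2 and 56.0 with tamoxifen, 191 and 181 with estradiol and 269 in vehicle. Smooth muscle markers summed to at most 22.7 FPKM except in vehicle, with 74.5. Against vehicle, all 11 tested stromal and 6 of 7 smooth muscle markers fell with tamoxifen (24.1% of all genes). With estradiol 6 of the 11 stromal markers fell and 2 (Col1a1 and Col1a2) rose (12.8% and 22.7% of all genes), and all 7 smooth muscle markers fell. The part of these 3 cell types in the members' differences was not tested. With tamoxifen plus alpelisib over tamoxifen, 3 of the 11 stromal markers rose and 1 fell, and 4 of the 7 smooth muscle markers fell. Of all genes 6.93% rose and 4.81% fell in that comparison.

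Sprr1a and Sprr2g formed a pair that was high in vehicle and low with tamoxifen or estradiol. Sprr1a had 222 and 253 FPKM with tamoxifen plus alpelisib, 33.6 and 94.5 with tamoxifen, 40.7 and 18.9 with estradiol, and 312 in vehicle. Sprr2g had 99.2 and 128 FPKM with tamoxifen plus alpelisib, 12.1 and 26.1 with tamoxifen, 25.7 and 14.04 with estradiol, and 219 in vehicle. For both genes the tamoxifen and the estradiol libraries overlapped, and the tamoxifen plus alpelisib libraries lay above all of these and below vehicle. Against vehicle, Sprr2g fell by 3.54 ± 0.50 on the log2 scale with tamoxifen (adjusted p = 0.00292) and fell by 3.45 ± 0.50 with estradiol (adjusted p = 0.00443). Sprr1a fell by 2.44 ± 0.65 with tamoxifen (adjusted p = 0.0274) and fell by 3.44 ± 0.65 with estradiol (adjusted p = 0.0102). The tamoxifen call for Sprr1a ended without tamoxifen library 1, with a difference of -1.71 (adjusted p = 0.0642; 0.0119 to 0.159 over 9 alternatives), against -3.18 without library 2, and with the libraries' numbers as a block it gave an adjusted p of 0.0531. Tamoxifen against estradiol gave 1.0 ± 0.53 for Sprr1a (adjusted p = 0.167) and -0.09 ± 0.41 for Sprr2g (adjusted p = 0.873). Without tamoxifen library 1 the Sprr1a difference was 1.73 (adjusted p = 0.0368; 0.0368 to 0.674 over 11 alternatives). The difference between tamoxifen plus alpelisib and tamoxifen was 2.05 ± 0.53 for Sprr1a (1.32 and 2.78 without tamoxifen library 1 and 2) and 2.60 ± 0.41 for Sprr2g, and that between tamoxifen plus alpelisib and vehicle was -0.40 ± 0.65 and -0.95 ± 0.50. Over the 7 libraries the log2 levels of both genes had a Pearson r of 0.949, although their transcripts share no 50-base stretch.

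Sprr2f was the most abundant member wherever tamoxifen was given. It had 3011 and 3544 FPKM with tamoxifen plus alpelisib, 1541 and 3397 with tamoxifen, 351 and 186 with estradiol, and 101 in vehicle. The libraries with and without alpelisib overlapped, while every library with tamoxifen lay above both estradiol libraries, and those above vehicle. Sprr2f rose with tamoxifen by 4.48 ± 0.58 over vehicle (adjusted p = 0.00209) and by 3.16 ± 0.47 over estradiol (adjusted p = 0.00297). Estradiol against vehicle gave 1.33 ± 0.58 (adjusted p = 0.123), which did not pass. Tamoxifen plus alpelisib against tamoxifen gave 0.51 ± 0.47, and -0.056 without tamoxifen library 1.

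Sprr2a1 was lowest in vehicle and highest with tamoxifen alone. It had 3.48 and 3.03 FPKM with tamoxifen plus alpelisib, 7.64 and 11.02 with tamoxifen, 6.40 and 3.96 with estradiol, and 0.316 in vehicle. The tamoxifen plus alpelisib libraries lay below all libraries of tamoxifen or estradiol alone and above vehicle, and no other member was lower with alpelisib than without it in every library. The copies Sprr2a2 and Sprr2a3, which are not counted among the 10, had the same order of group means. Sprr2a2 was at 3.41 and 2.99 FPKM with tamoxifen plus alpelisib, 7.64 and 11.03 with tamoxifen, 6.51 and 3.96 with estradiol, and 0.274 in vehicle. Sprr2a3 was at 3.10 and 3.52 FPKM with tamoxifen plus alpelisib, 6.49 and 10.7 with tamoxifen, 8.40 and 2.98 with estradiol, and 0.324 in vehicle, so that its estradiol libraries lay on both sides of those with alpelisib. Given the shared sequence, these are not separate observations. Sprr2a1 rose over vehicle by 2.95 ± 0.30 with tamoxifen (adjusted p = 0.000874) and by 2.20 ± 0.30 with estradiol (adjusted p = 0.00357). Tamoxifen against estradiol gave 0.75 ± 0.25 (adjusted p = 0.0451), a call that ended without tamoxifen library 2 (0.51, adjusted p = 0.201), without estradiol library 2 (0.46, adjusted p = 0.189) with a pseudocount of 0.1 (adjusted p = 0.0521) and with the libraries' numbers as a block (adjusted p = 0.0762), and that held in 5 of 11 alternatives, within 0.00787 to 0.201. Tamoxifen plus alpelisib against tamoxifen gave -1.26 ± 0.25.

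Sprr2b and Sprr2d were low in vehicle, higher with estradiol and highest with tamoxifen plus alpelisib. Sprr2b had 129 and 166 FPKM with tamoxifen plus alpelisib, 7.33 and 18.7 with tamoxifen, 58.4 and 38.9 with estradiol, and 3.33 in vehicle. No 2 groups overlapped for Sprr2b, and estradiol lay between the groups with tamoxifen. Sprr2d had 312 and 392 FPKM with tamoxifen plus alpelisib, 17.4 and 54.8 with tamoxifen, 28.2 and 20.9 with estradiol, and 1.62 in vehicle. Its tamoxifen and estradiol libraries overlapped. With estradiol, Sprr2b rose over vehicle by 3.49 ± 0.51 (adjusted p = 0.00446) and Sprr2d by 3.27 ± 0.60 (adjusted p = 0.00932). With tamoxifen, Sprr2d rose over vehicle by 3.61 ± 0.60 (adjusted p = 0.00524), while Sprr2b gave 1.56 ± 0.51 and missed the threshold (adjusted p = 0.0529). Without tamoxifen library 1 the Sprr2b difference passed, at 2.18 (adjusted p = 0.0118; 0.0118 to 0.231 over 9 alternatives). Sprr2b was lower with tamoxifen than with estradiol (-1.93 ± 0.42, adjusted p = 0.011), and this call ended without estradiol library 1 (-1.64, adjusted p = 0.062; 0.00558 to 0.096 over 11 alternatives). It was -1.31 and -2.55 without tamoxifen library 1 and 2, and passed both times. For Sprr2d the same comparison gave 0.34 ± 0.49 (adjusted p = 0.591). It passed without tamoxifen library 1 (1.14, adjusted p = 0.0246) and had the other sign without tamoxifen library 2 (-0.46, adjusted p = 0.212), within 0.0246 to 0.976 over 11 alternatives. Tamoxifen plus alpelisib against tamoxifen gave 3.53 ± 0.42 for Sprr2b and 3.45 ± 0.49 for Sprr2d, ratios of means of 11.3 and 9.76. Without tamoxifen library 1 these differences were 2.90 and 2.65, and without library 2 they were 4.15 and 4.25. The rise of Sprr2d with tamoxifen over vehicle was 4.41 and 2.81 without tamoxifen library 1 and 2, and passed both times.

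Sprr2e, Sprr2h, Sprr2i and Sprr2k had their highest levels with tamoxifen plus alpelisib and were low or listed at 0 without tamoxifen. Sprr2e had 151 and 165 FPKM with tamoxifen plus alpelisib, 4.07 and 18.5 with tamoxifen, 1.57 and 0.535 with estradiol, and 1.65 in vehicle. Sprr2h had 10.3 and 11.9 FPKM with tamoxifen plus alpelisib, 0.990 and 2.18 with tamoxifen, none in either estradiol library, where it was listed at 0, and 0.298 in vehicle. For both genes the tamoxifen libraries lay below those with alpelisib and above all those without tamoxifen. Sprr2i had 1.18 and 2.73 FPKM and Sprr2k 1.05 and 1.21 FPKM with tamoxifen plus alpelisib. Both were listed at 0 with tamoxifen and in vehicle, and with estradiol Sprr2i was at 0 and 0.145 and Sprr2k at 0.266 and 0. Sprr2e was higher with tamoxifen than with estradiol, by 2.32 ± 0.60 (adjusted p = 0.0203), but not without estradiol library 2 (1.95, adjusted p = 0.12; 0.00378 to 0.146 over 11 alternatives). It was 3.30 and 1.35 without tamoxifen library 1 and 2, and passed both times. Sprr2e gave 1.91 ± 0.74 for tamoxifen against vehicle (adjusted p = 0.085) and passed without tamoxifen library 1 (2.88, adjusted p = 0.00687; 0.00687 to 0.32 over 9 alternatives). Estradiol against vehicle gave -0.42 ± 0.74 (adjusted p = 0.691). Sprr2h rose with tamoxifen over vehicle by 0.96 ± 0.28 (adjusted p = 0.0389), but not without tamoxifen library 2 (0.62, adjusted p = 0.0724; 0.0108 to 0.17 over 9 alternatives). It was also higher with tamoxifen than with estradiol (adjusted p = 0.00498). Tamoxifen plus alpelisib against tamoxifen gave 4.0 ± 0.60 for Sprr2e, a ratio of means of 14 (3.03 and 4.97 without tamoxifen library 1 and 2), and 2.26 ± 0.23 for Sprr2h, a ratio of 7.0. Over the 7 libraries, log2 levels of Sprr2e and Sprr2h had a Pearson r of 0.994.

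**Figure D2:**
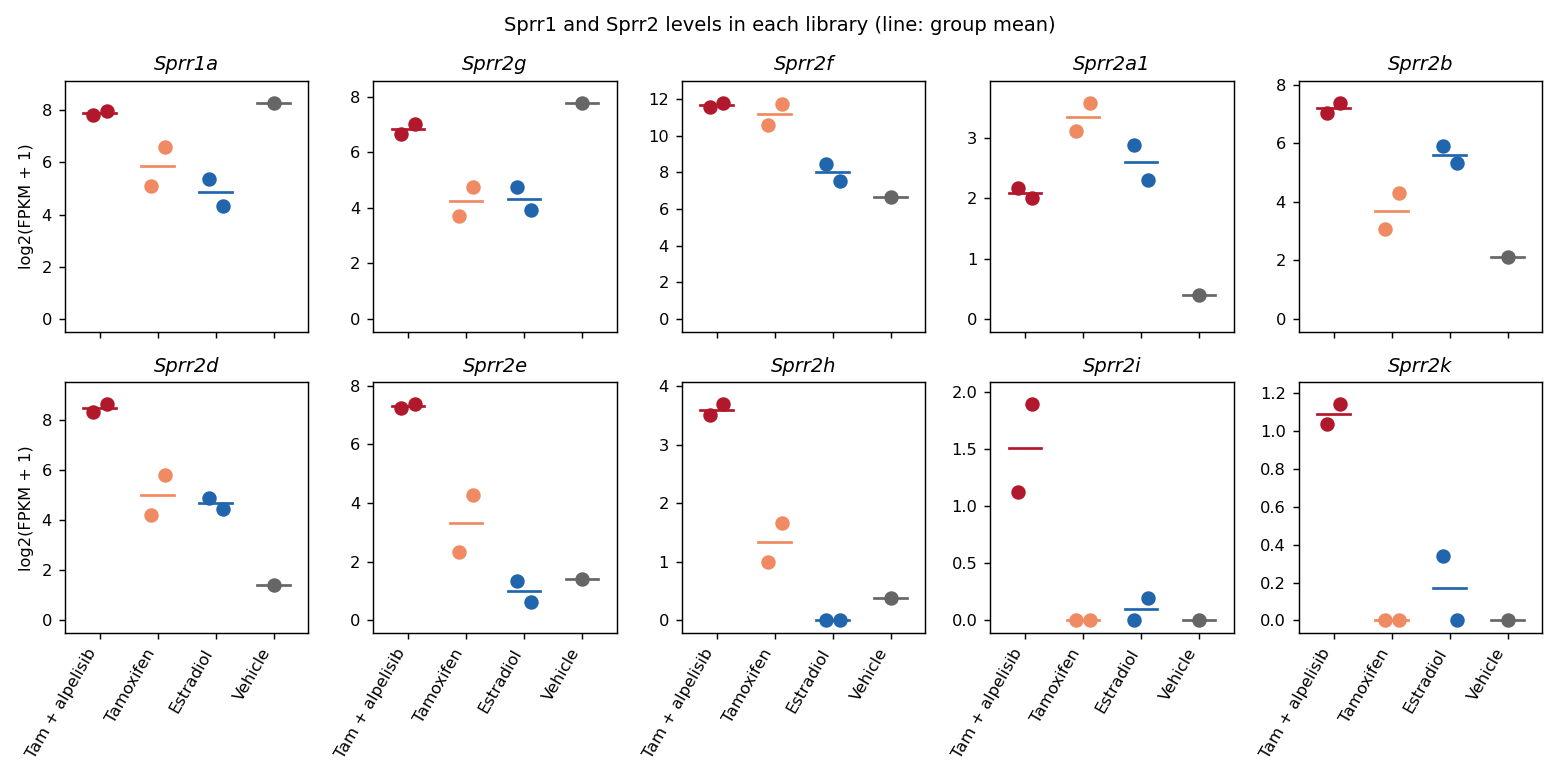
Levels of the 10 family members in each library, as log2(FPKM + 1), with 1 panel per gene and its own y axis; points are libraries and lines are group means (2 libraries each, 1 for vehicle). Sprr1a and Sprr2g are high in vehicle, Sprr2f is high in all 4 libraries with tamoxifen, Sprr2a1 is highest with tamoxifen alone, and the other 6 are highest with tamoxifen plus alpelisib.

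Across the family, tamoxifen against vehicle called 4 of 10 members higher (14.9% of all genes) and 2 lower (24.1% of all genes). Estradiol against vehicle called 3 higher (22.7% of all genes) and 2 lower (12.8%), which with so few members is not far from the background. Tamoxifen against estradiol called 4 higher (12.3% of all genes) and 1 lower (36.2%). The tamoxifen and estradiol comparisons with vehicle share the 1 vehicle library. Without the filter on low values, the calls of Sprr1a, Sprr2d and Sprr2h for tamoxifen against vehicle ended. So did those of Sprr2a1, Sprr2b, Sprr2e and Sprr2h for tamoxifen against estradiol and of Sprr1a and Sprr2d for estradiol against vehicle. The share of all genes that passed fell too, from 39.0% to 17.2%, from 48.5% to 18.6% and from 35.5% to 14.4% in the same order. With only the compared groups in the fit, the calls of Sprr1a and Sprr2h for tamoxifen against vehicle and of Sprr2a1 for tamoxifen against estradiol ended. The median log2 difference of the members was 1.26 for tamoxifen against vehicle (all genes -0.12), 0.13 for estradiol against vehicle (all genes 0.12) and 0.55 for tamoxifen against estradiol (all genes -0.26). In these medians the members listed at 0 in both groups count as no difference. With tamoxifen plus alpelisib against tamoxifen, 8 of 10 members were apart in every library and at least 2-fold higher on the log2(FPKM + 1) scale (3.95% of all genes) and 1 was lower (1.2%), a count that the choice of members fixes in part and from which nothing is read. Against estradiol 8 members were so placed (8.8% of all genes) and 0 were lower (15.5%). Against vehicle 8 were higher (8.84% of all genes) and 0 lower (11.3%). Nothing is read from these 2 counts either, since the members were chosen for high values with alpelisib and Sprr2i and Sprr2k passed the filter only through those libraries. The 2 members outside the count were Sprr2a1 and Sprr2k against estradiol, and Sprr1a and Sprr2g against vehicle.

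**Figure D3:**
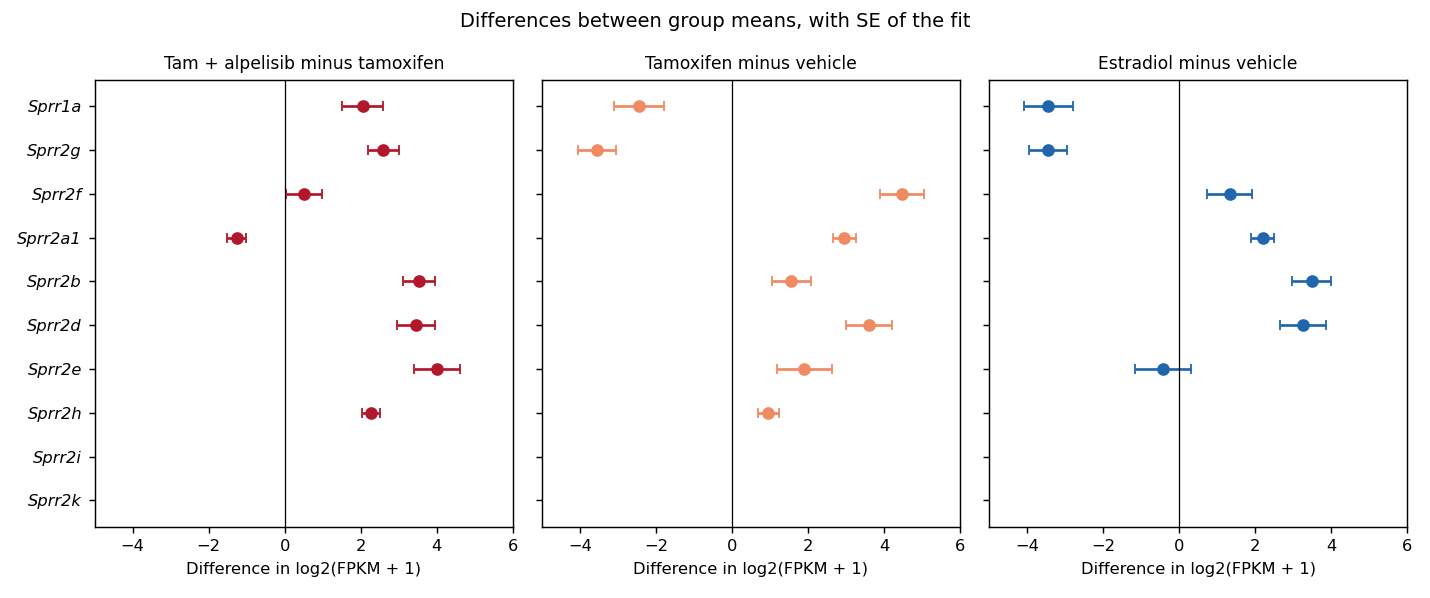
Differences between group means of log2(FPKM + 1) for each member, as points with SE of the fit (x axis), for tamoxifen plus alpelisib minus tamoxifen, tamoxifen minus vehicle and estradiol minus vehicle. Members listed at 0 in a whole group have no point; Sprr1a and Sprr2g lie left of 0 for tamoxifen and estradiol and right of 0 for alpelisib, and Sprr2a1 does the reverse.

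The sum over the 10 members was dominated by Sprr2f. It was 3940.4 and 4667 FPKM with tamoxifen plus alpelisib, 1624 and 3623 with tamoxifen, 512 and 283 with estradiol, and 639 in vehicle. The tamoxifen plus alpelisib libraries lay above those of tamoxifen, by 1.64 times in the mean, or 1.19 and 2.65 times without tamoxifen library 1 and 2, and every library with tamoxifen lay above estradiol and vehicle. The family took up 1.11% and 1.23% of all FPKM with tamoxifen plus alpelisib, 0.507% and 0.898% with tamoxifen, 0.158% and 0.107% with estradiol, and 0.167% in vehicle. Sprr2f made up 76.4% and 75.9% of the sum with tamoxifen plus alpelisib, 94.9% and 93.8% with tamoxifen, 68.5% and 65.6% with estradiol, and 15.9% in vehicle. In vehicle Sprr1a (48.8%) and Sprr2g (34.2%) held most of the sum. Without Sprr2f, the sum was 929 and 1123 FPKM with tamoxifen plus alpelisib, 83.1 and 226 with tamoxifen, 161 and 97.4 with estradiol, and 538 in vehicle. The ratio of tamoxifen plus alpelisib to tamoxifen was then 6.64, or 4.54 and 12.3 without tamoxifen library 1 and 2, and tamoxifen and estradiol overlapped. Sprr2d and Sprr2b held 7.92% to 8.41% and 3.28% to 3.56% of the full sum with tamoxifen plus alpelisib, 1.07% to 1.51% and 0.451% to 0.516% with tamoxifen, 5.50% to 7.38% and 11.4% to 13.7% with estradiol, and 0.254% and 0.521% in vehicle.

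**Figure D4:**
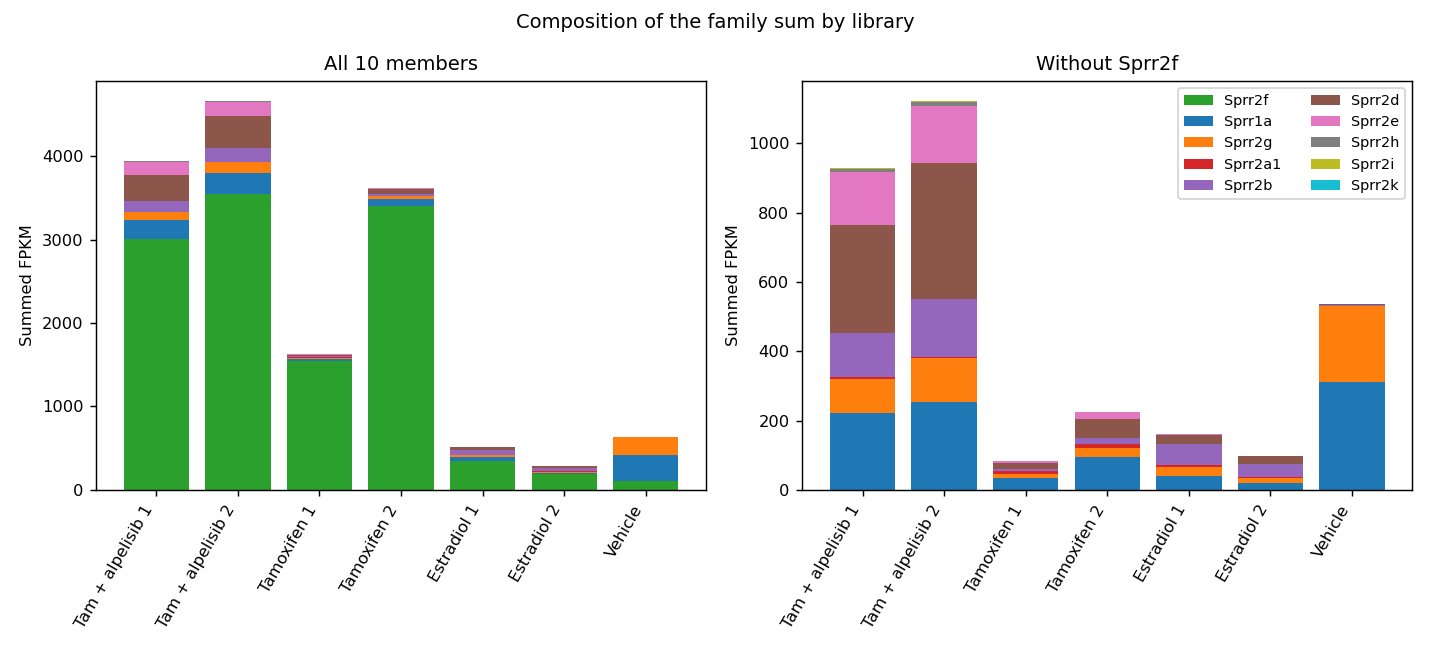
Summed FPKM of the family in each library (y axis), stacked by member, for all 10 members (left) and without Sprr2f (right). Sprr2f fills most of each bar except in vehicle, and without it the 2 tamoxifen plus alpelisib libraries reach 929 and 1123 FPKM, above the other 5.

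Replicates of 1 group differed in the same direction for nearly all members. Tamoxifen library 2 exceeded library 1 in each of the 8 members detected there, by 1.44 to 4.55 times, while between the tamoxifen plus alpelisib libraries the ratio of library 2 to library 1 was 0.869 for Sprr2a1 and 1.09 to 2.31 for the others. Estradiol library 1 exceeded library 2 by 1.35 to 2.93 times in the 7 members detected in both. All member transcripts but that of Sprr2a1 are under 1 kb, and short genes moved the same way between these replicates: the median log2 ratio over the 687 tested genes with transcripts under 1 kb was 0.460 for tamoxifen library 2 over 1 and -0.507 for estradiol library 2 over 1, against -0.011 and 0.108 over the 4331 genes with transcripts over 4 kb. Between groups, the median difference of the short genes was -0.013 for tamoxifen plus alpelisib against tamoxifen and 0.10 for tamoxifen against vehicle. It was 0.275 for tamoxifen against estradiol and -0.189 for estradiol against vehicle. Over the genes with transcripts over 4 kb it was -0.014, -0.221, -0.472 and 0.250 in the same order. The shares of all genes given as background were not matched for transcript length. The part of transcript length in the members' differences was not tested.

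Beyond the family, 16 of 22 tested genes of cornified envelope formation and squamous differentiation reached 1 FPKM in a library other than those with alpelisib. Of these 16, 7 rose with tamoxifen plus alpelisib over tamoxifen and 0 fell by limma, against 6.69% and 4.85% of all such genes, with a median log2 difference of 0.66 (all such genes -0.03). The other 6 (Cnfn, Krt16, Krtdap, Pglyrp4, Scel and Serpinb2) were tested only because of their levels in the tamoxifen plus alpelisib libraries, and 4 of them passed. Over all 22 the count was 11 higher and 0 lower, against 6.93% and 4.81% of all tested genes. It was 13 and 0 at an unadjusted p under 0.05, a cutoff for which the share of all genes is not given. Krt16, a keratin of stressed and hyperproliferative squamous epithelium, had 11.4 and 12.9 FPKM with tamoxifen plus alpelisib and 0.493 and 0.757 with tamoxifen, and is 1 of those 6. Tgm1, the membrane-bound transglutaminase that cross-links Sprr proteins, had 2.89 and 2.85 FPKM with tamoxifen plus alpelisib and 0.401 and 0.416 with tamoxifen, a difference of 1.46 ± 0.13 (adjusted p = 0.00423). Cnfn (cornifelin, an envelope component) had 2.23 and 2.57 FPKM with tamoxifen plus alpelisib and was listed at 0 in the other 5 libraries. Leaving out 1 tamoxifen plus alpelisib library left 1 or 0 of the 22 past the threshold, when 0.146% and 0.114% of all genes passed. Krt6a, the partner of Krt16, rose by 1.45 ± 0.13 (adjusted p = 0.00433). Involucrin (Ivl), a main cross-linking partner of Sprr proteins, was under 1 FPKM in every library and was not tested. Loricrin (Lor), the major envelope protein of the epidermis, had 1.52 and 1.35 FPKM with tamoxifen plus alpelisib, 0.392 and 1.37 with tamoxifen, 0.991 and 1.15 with estradiol, and 18.7 in vehicle. Lor fell with tamoxifen by 3.44 ± 0.31 (adjusted p = 0.000536) and with estradiol by 3.25 ± 0.31 (adjusted p = 0.00108) against vehicle, and it did not differ past the threshold between tamoxifen plus alpelisib and tamoxifen (0.42 ± 0.25, adjusted p = 0.322). Over vehicle, 7 of the 22 rose and 3 fell with tamoxifen (14.9% and 24.1% of all genes), and 5 rose and 3 fell with estradiol (22.7% and 12.8%), or 2 and 2 with only the compared groups. Krt6b had the lowest p with tamoxifen (3.90 ± 0.14, adjusted p = 4.49e-05) and Krt6a with estradiol (2.88 ± 0.16, adjusted p = 0.000421). With tamoxifen 7 were higher and 2 lower than with estradiol (12.3% and 36.2% of all genes).

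**Figure D5:**
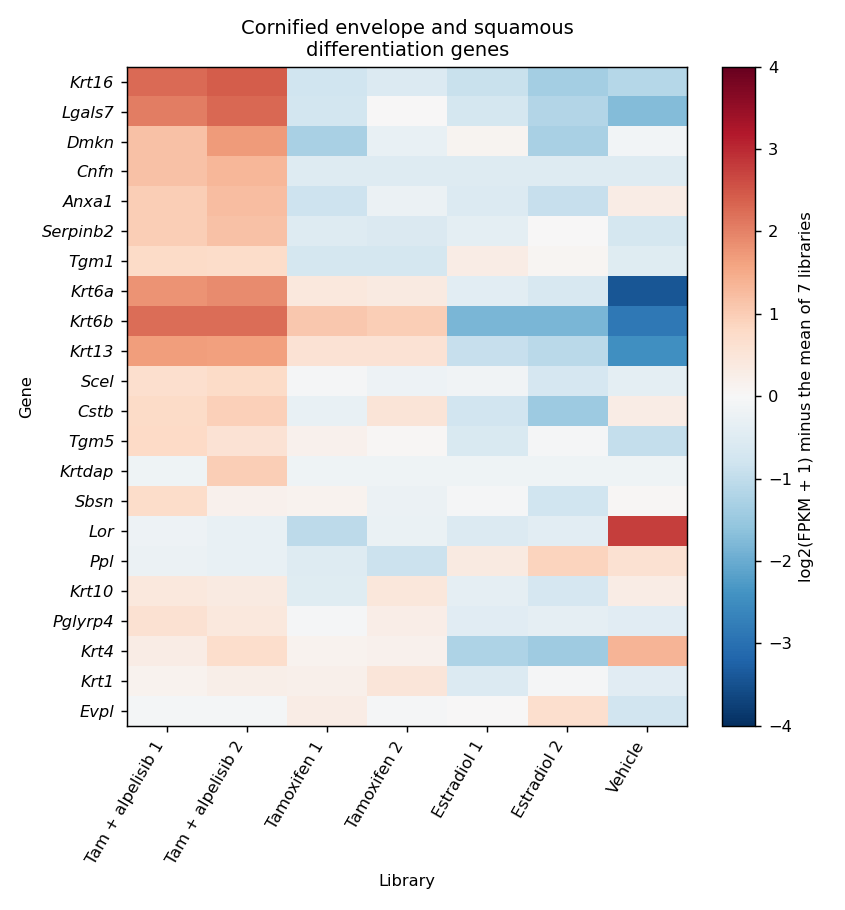
Levels of the 22 tested cornified envelope and squamous differentiation genes (rows) in the 7 libraries (columns), as log2(FPKM + 1) minus the gene's mean over libraries (colour scale). Krt16, Lgals7 and Krt6b are highest in the 2 tamoxifen plus alpelisib libraries, and Lor and Krt4 in vehicle.

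Most neighbouring genes of the cluster were at or near 0. Of 30 other Sprr and late cornified envelope genes in the table, 16 were at 0 in every library and 6 could be tested. Of these 6, 2 rose and 1 fell with tamoxifen plus alpelisib over tamoxifen (6.93% and 4.81% of all genes). The 1 that fell, Sprr2a2, is a copy of the member Sprr2a1, and nothing is read from its call. Lce3a had 10.9 and 15.6 FPKM with tamoxifen plus alpelisib, 0.810 and 2.57 with tamoxifen and was listed at 0 in the other 3 libraries, a difference between the first 2 groups of 2.47 ± 0.33 (adjusted p = 0.00935). Lce3c gave 2.30 ± 0.38 (adjusted p = 0.0178). The copies of Sprr2a1 are given as descriptions, with -1.28 ± 0.25 for Sprr2a2 and -1.12 ± 0.41 for Sprr2a3. Sprr1b, Sprr3 and Sprr4 were at most at 0.0899 FPKM in any library. Over vehicle, 3 of the 6 rose and 0 fell with tamoxifen (Sprr2a2, Sprr2a3 and Lce3a), against 14.9% and 24.1% of all genes. With estradiol 2 rose and 0 fell (Sprr2a2 and Sprr2a3), against 22.7% and 12.8%. As copies of Sprr2a1, Sprr2a2 and Sprr2a3 are not observations separate from that member. Another of the 6, Lce3b, was tested only because of its levels in the tamoxifen plus alpelisib libraries. The estradiol difference of Sprr2a3 was 1.59 and 2.83 without estradiol library 1 and 2. Higher with tamoxifen than with estradiol were 2, Lce3a and Sprr2a2, and lower 0 (12.3% and 36.2% of all genes). These counts changed without tamoxifen library 2 and without estradiol library 2. At an unadjusted p under 0.05, 0 of the 6 fell with tamoxifen against vehicle or estradiol and 1 with estradiol against vehicle. The share of all genes at that cutoff is not given. Leaving out either tamoxifen plus alpelisib library ended the 3 calls with alpelisib, and leaving out either tamoxifen library left 1 of them.

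The S100 genes of the same complex encode small calcium-binding proteins. Of 11 tested, 3 rose with tamoxifen plus alpelisib over tamoxifen and 0 fell (6.93% and 4.81% of all genes). At an unadjusted p under 0.05 the counts were 6 and 0, but the share of all genes at that cutoff is not given. S100a9, a subunit of calprotectin, had 40.2 and 43.2 FPKM with tamoxifen plus alpelisib and 2.996 and 6.32 with tamoxifen, a difference of 2.98 ± 0.53 (adjusted p = 0.0216). Its partner S100a8 had 6.97 and 7.37 FPKM with tamoxifen plus alpelisib and was listed at 0 with tamoxifen. S100a6 gave 1.32 ± 0.32 (adjusted p = 0.0471). Without either tamoxifen plus alpelisib library or without tamoxifen library 1 only the call of S100a8 was kept of these 3. S100a8 and S100a9 are also neutrophil genes. The 12 neutrophil markers summed to 1782 and 1753 FPKM with tamoxifen plus alpelisib, 2562 and 2548 with tamoxifen, 1529 and 1329 with estradiol, and 83.7 in vehicle, mostly through Ltf, which is also in the estrogen response list. Besides Ltf, S100a8 and S100a9, only Ly6g reached 1 FPKM, with 1.53 and 1.70 FPKM with tamoxifen plus alpelisib, 2.28 and 2.10 with tamoxifen, 4.11 and 0.545 with estradiol, and 0.144 in vehicle. The other 8 were under 1 FPKM in every library, and Elane was at 0 in all 7. The part of neutrophils in these values was not tested. Over vehicle 1 S100 gene rose and 1 fell with tamoxifen (14.9% and 24.1% of all genes), and 1 rose and 4 fell with estradiol (22.7% and 12.8%). Without estradiol library 2 only 1 fell with estradiol, and with only the compared groups or a replicate block 0 fell. Higher with tamoxifen than with estradiol were 5, and lower 2 (12.3% and 36.2% of all genes), but without tamoxifen library 2 only 1 was higher, and without estradiol library 2 only 2.

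Among 27 tested regulators of squamous differentiation, 7 rose with tamoxifen plus alpelisib over tamoxifen and 0 fell (6.93% and 4.81% of all genes). At an unadjusted p under 0.05 the counts were 9 and 2, but the share of all genes at that cutoff is not given. Some or all of the 7 calls ended when any library of either group was left out. Such a fit leaves 1 library in its group, and it called fewer of all genes too. Fosl1, an AP-1 subunit, had 63.9 and 67.5 FPKM with tamoxifen plus alpelisib, 7.08 and 14.95 with tamoxifen, 5.13 and 2.85 with estradiol, and 83.5 in vehicle. Its group means stood in the same order as those of Sprr1a, and its difference with alpelisib was 2.56 ± 0.36 (adjusted p = 0.0105). Fosl2, another AP-1 subunit, rose by 1.28 ± 0.16 (adjusted p = 0.00762) and Klf5 by 1.48 ± 0.13 (adjusted p = 0.00418). Prdm1, a repressor active in differentiating keratinocytes, rose by 1.33 ± 0.14 (adjusted p = 0.00537). The other Fos and Jun genes of the list did not pass. Junb gave 0.86 ± 0.43 (adjusted p = 0.242) and Jund 0.82 ± 0.42 (adjusted p = 0.254). Jun gave 0.07 ± 0.35 (adjusted p = 0.927) and Fos -0.04 ± 0.36 (adjusted p = 0.958). Against vehicle, Fosl1 fell by 2.90 ± 0.44 with tamoxifen (adjusted p = 0.00362) and fell by 4.12 ± 0.44 with estradiol (adjusted p = 0.00158), Fosl2 fell by 2.52 ± 0.19 with tamoxifen (adjusted p = 0.00031), and Klf5 fell by 1.82 ± 0.16 with tamoxifen (adjusted p = 0.000507). In all, 6 of the 27 rose and 8 fell with tamoxifen over vehicle (14.9% and 24.1% of all genes), which is near the background. With estradiol 4 rose and 8 fell over vehicle (22.7% and 12.8% of all genes), or 1 and 5 with only the compared groups. With tamoxifen 8 were higher and 6 lower than with estradiol (12.3% and 36.2% of all genes), or 3 and 5 without either tamoxifen library 2 or estradiol library 2.

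Among 29 tested genes of the uterine estrogen response, 13 rose and 6 fell with tamoxifen over vehicle (14.9% and 24.1% of all genes). With estradiol over vehicle 12 rose and 6 fell (22.7% and 12.8%). With tamoxifen plus alpelisib over tamoxifen 0 rose and 1 (Ramp3) fell (6.93% and 4.81%). That comparison gave 3 and 7 at an unadjusted p under 0.05, a cutoff for which the share of all genes is not given. It gave 1 and 4 past the threshold with only the compared groups in the fit. The Ramp3 call ended without either tamoxifen plus alpelisib library. Cfb, complement factor B, had 704 and 714 FPKM with tamoxifen plus alpelisib, 831 and 731 with tamoxifen, 263 and 277 with estradiol, and 19.5 in vehicle, and rose over vehicle by 5.25 ± 0.23 with tamoxifen (adjusted p = 6.35e-05) and by 3.72 ± 0.23 with estradiol (adjusted p = 0.000422). With tamoxifen 15 were higher and 9 lower than with estradiol (12.3% and 36.2% of all genes). The basal and squamous epithelial markers summed to 975 and 988 FPKM with tamoxifen plus alpelisib, 706 and 656 with tamoxifen, 245 and 236 with estradiol, and 373 in vehicle. Of the 15 tested, 8 rose and 1 fell with tamoxifen plus alpelisib over tamoxifen (6.93% and 4.81% of all genes). Dsg3, 1 of the 8, was tested only because of its levels in the tamoxifen plus alpelisib libraries. None of the 18 was at 0 in every library, 7 of them are also in the cornified envelope list, and their part in the family's values was not tested. Mesothelial markers summed to 33.6 and 31.4 FPKM with tamoxifen plus alpelisib, 11.2 and 13.9 with tamoxifen, 35.5 and 31.8 with estradiol, and 26.2 in vehicle. Of these 5 markers 4 rose with tamoxifen plus alpelisib over tamoxifen (6.93% of all genes), and their part was not tested either.

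The genes outside the family whose log2 levels were most like the family sum over the 7 libraries, among 1178 candidates, were Prr13 (Pearson r = 0.995), Sh3bgrl3, Map1lc3a, Grhpr, Eva1a, Mrps6, Pnp, Hist2h2aa1, Vamp8 and Dap (r = 0.984). Since the sum follows Sprr2f, the same measure was taken for 2 other members, chosen after their values had been seen. Most like Sprr1a were Ccnl1 (r = 0.994), the tight junction gene Cldn4, H3f3b, Srsf5, Cdc42ep3, Fosl1 (r = 0.988) and Plaur, the urokinase receptor. Cldn4 had 1110 and 1251 FPKM with tamoxifen plus alpelisib, 213 and 479 with tamoxifen, 170 and 95.2 with estradiol, and 1442 in vehicle. Most like Sprr2d were Micall2 (r = 0.984), the protease inhibitor Slpi, Nfkbiz, Cd52 and Rap2b. Slpi had 25.0 and 38.0 FPKM with tamoxifen plus alpelisib, 4.03 and 9.84 with tamoxifen, 6.23 and 4.44 with estradiol, and 1.86 in vehicle. The 7 points share the treatment groups and the shift of short genes between replicates, and these values are descriptions only.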

How the data were processed

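Total RNA of epithelial endometrial cells was sequenced, per the labels, in 7 libraries of 4 groups. The authors deposited FPKM, which the values themselves show, and their tools are CASAVA, Bowtie and Cufflinks with no version, per the submitters' processing notes. The only build named there is hg19, although the symbols are mouse symbols, so no position was taken from the table. The design assumed FPKM, and limma-trend 3.58.1 (R 4.3.3) was fitted to log2(FPKM + 1) over all 7 libraries, with 4 group means, 3 residual degrees of freedom, 3.27 prior degrees of freedom and Benjamini-Hochberg adjustment within each comparison. Vehicle, with 1 library, is assumed to vary like the other groups. The labels name a separate mouse for each treated library. With a pseudocount of 1, differences of lowly expressed genes are understated. The median log2 difference of all genes was -0.12 without and 0.029 with median-of-ratios scaling for tamoxifen against vehicle, -0.26 and 0.022 for tamoxifen against estradiol, 0.12 and -0.005 for estradiol against vehicle, and -0.028 and -0.024 for tamoxifen plus alpelisib against tamoxifen.

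The members, gene lists and likeness rule were chosen with earlier results of these data known. The genes named are all members, up to 4 genes of lowest p of each list in a comparison described, and the 10 genes most like the family sum among those with a mean FPKM of at least 5 and a log2 range of at least 2. Ivl, Lgals7, Elane, Ly6g, Ltf, Col1a1, Col1a2, Dsg3, Lce3b, Rn45s, Junb, Jund, Jun, Fos, Sprr1b, Sprr3 and Sprr4 were named after their values were seen. The same holds for the genes most like Sprr1a and Sprr2d. Transcript lengths were found for 96.9% of tested genes. Tables and figures were made with Python 3.11.15, pandas 2.3.3, numpy 2.4.6, matplotlib 3.10.9 and biopython 1.88, and the fit was tested on simulated data. The mouse numbers 1 and 2 name different animals and pair nothing.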

Additional observations from a re-analysis of the deposited data

How the results depend on the processing

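The 3 tested comparisons and the descriptions of tamoxifen plus alpelisib were recomputed with median-of-ratios scaling, without the filter on low values, with 1 FPKM required in 2 libraries, with a pseudocount of 0.1, with robust empirical Bayes, with only the compared groups, with each replicate left out and with a replicate block; vehicle could not be left out, since it has 1 library. Without the filter, 3 members passed for tamoxifen against vehicle (6 as reported) and 1 for tamoxifen against estradiol (5 as reported). For estradiol against vehicle 3 passed (5 as reported). Of all genes 17.2% then passed in the first comparison (39.0% as reported), 18.6% in the second (48.5%) and 14.4% in the third (35.5%). The drop is thus not particular to the members, and its cause was not tested. Leaving out each replicate gave 5 to 7, 3 to 7 and, both times, 5 members in the same 3 comparisons. The log2 difference of the family sum between tamoxifen plus alpelisib and vehicle was 2.95 under median-of-ratios scaling and 2.74 as reported. Directions turned when a replicate was left out for Sprr2f between tamoxifen plus alpelisib and tamoxifen (-0.056 to 1.08, lowest without tamoxifen replicate 1), for Sprr2d between tamoxifen and estradiol (-0.46 to 1.14, lowest without tamoxifen replicate 2) and for Sprr2g between tamoxifen and estradiol (-0.62 to 0.44, above 0 without tamoxifen replicate 1 or, at 0.32, without estradiol replicate 1). Sprr2g between tamoxifen and estradiol also turned under median-of-ratios scaling (0.25). The cause was not tested, and as reported neither difference between tamoxifen and estradiol passed the threshold. The alternatives for the gene lists were chosen after seeing the data. With tamoxifen plus alpelisib against tamoxifen, leaving out each replicate gave 0 to 9 cornified envelope genes (11 as reported), 0 to 1 other Sprr and late envelope genes (3 as reported), 1 to 3 S100 genes (3 as reported), 0 to 4 regulator genes (7 as reported) and 0 to 2 estrogen response genes (1 as reported). Without the filter, 0 of the other Sprr and late envelope genes, 3 regulators and 2 estrogen response genes passed; with a replicate block, 4 regulators passed; and of the estrogen response genes 3 passed with median-of-ratios scaling, 2 with a pseudocount of 0.1 and 5 with only the compared groups. Of all genes 11.7% passed for tamoxifen plus alpelisib against tamoxifen as reported, 2.36% without the filter and 4.78% with a replicate block. The share was 14.8% with median-of-ratios scaling, 12.3% with a pseudocount of 0.1 and 17.4% with only the compared groups. Each fit of that comparison without a replicate also called fewer of all genes, so smaller counts there are not particular to the lists. Without a replicate the lone library is assumed to vary like the other groups.

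The replicate numbers are labels only. Same-numbered libraries deviated together with r = 0.273 for tamoxifen plus alpelisib and tamoxifen, -0.182 for tamoxifen plus alpelisib and estradiol and -0.403 for tamoxifen and estradiol, over genes. With the replicate number as a block, 5 members passed for tamoxifen against vehicle, 4 for tamoxifen against estradiol and 5 for estradiol against vehicle. Over single members and settings, 414 values were unchanged, 21 lost and 8 gained a call. A further 25 moved by more than the replicate spread and 5 turned. In the tested comparisons, unchanged means the same direction and side of the threshold. Members were not tested in the comparisons with tamoxifen plus alpelisib, where unchanged means the same direction and a move within the replicate spread.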
